A study of Drosophila melanogaster with 33 samples.

Results

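The response of the Drosophila eye-antennal disc to an activated form of Yorkie was compared between 2 ways of delivering it: throughout the domain of the optix-Gal4 driver, or in MARCM clones. The comparison used 15 of the 33 libraries of the series, chosen by their labels: every optix library (3 ctrl, 2 yki3SA) and every MARCM ctrl (5) and MARCM yki3SA (5) library of sequencing run 1. The quantity tested for each gene was the log2 change of optix yki3SA over optix ctrl minus the log2 change of MARCM yki3SA over MARCM ctrl. A positive difference therefore means that the optix change was the higher of the 2. It was tested in 8693 genes.

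Each library was made from at least 30 eye-antennal discs of larvae kept at 25 °C and dissected 5 days after egg laying, and sequenced from the 3′ ends of transcripts (QuantSeq). The optix yki3SA larvae were w/y v with 1 copy each of optix-Gal4 and UAS-yki3SA, and their controls, also w/y v with optix-Gal4, carried UAS-lucRNAi (a hairpin against luciferase) in place of UAS-yki3SA. The MARCM larvae were FRT19A over tub-Gal80 FRT19A and carried ey-FLP, Act 5C<y+<Gal4 and UAS-GFP, with UAS-yki3SA added in the yki3SA group and no second UAS transgene in the ctrl group. The systems thus differed in the driver, in the FLP, Gal80 and GFP transgenes and in what the control carried, and these cannot be told apart from the pattern of delivery. They also differed in transcripts of male cells, given below. Whole discs were sequenced, so each value averages over cells with and without yki3SA. Below, the clones and the optix domain stand for whole discs of each system. A lower level could mean fewer cells of a type or less RNA per cell, and these cannot be told apart either.

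Yorkie (Yki) is the transcriptional co-activator that the Hippo pathway restrains. The kinase Warts phosphorylates Yki and keeps it out of the nucleus, and yki3SA lacks the serines that Warts targets, so it stays active; with the DNA-binding partner Scalloped it drives genes for growth and survival, among them negative regulators of its own pathway. Optix is a Six-family transcription factor of the eye field, expressed in and ahead of the morphogenetic furrow, the front behind which photoreceptors form. MARCM (mosaic analysis with a repressible cell marker) releases Gal4 from the repressor Gal80 in clones made by mitotic recombination, which with ey-FLP can fall in the eye, antennal and head parts of the disc.

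Total counts ran from 5838706 to 15273835 over the 15 libraries, and 7151 to 8231 genes had at least 10 counts. A principal component analysis also took in the 5 eyFLP libraries fitted with these, 20 in all. Its second component held 16.4% of the variance and spread the libraries of both systems. Optix ctrl scored -31.4, -60.5 and -13.8 on it, and optix yki3SA -40.2 and 8.11. MARCM replicates 1 to 5 scored 3.78, -6.82, -4.97, 22.5 and 22.9 in ctrl. In MARCM yki3SA they scored -20.9, -17.5, -18.7, -3.51 and 8.1. Markers of both disc fields were present in every group: in the controls Dll of the antenna stood at 121 ± 18.6 CPM (SD, n = 3) in optix ctrl and 120 ± 8.84 (n = 5) in MARCM ctrl, and the eye gene so at 53.2 ± 10.5 and 52.5 ± 9.24. CPM stands for counts scaled to a common library size by the trimmed mean of M values (TMM). The yki gene itself, which should show the transgene if its 3′ end is counted, gave 6.07, 0 and 17.4 CPM in the optix ctrl libraries and 9.84 and 45.4 in optix yki3SA. In MARCM ctrl it gave 23.9, 17, 23.9, 46.7 and 51.2 CPM, against 45.8, 38.7, 41.7, 41.3 and 67.8 in MARCM yki3SA. The yki ranges overlapped in both systems, no yki contrast was called, and its log2 difference was 1.26 ± 0.93 (SE; adjusted p = 0.39 in edgeR's quasi-likelihood test), so yki gives no check of the labels here.

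Transcripts of male cells differed between the systems and, within optix, between ctrl and yki3SA. The roX1 RNA, part of the male dosage compensation complex, stood at 362, 304 and 422 CPM in optix ctrl, 148 and 170 in optix yki3SA, and between 4.57 and 9.41 in all 10 MARCM libraries. The roX2 RNA followed the same order, at 44.9 to 59 CPM, 20.5 to 22.2 CPM and 0.363 to 1.57 CPM. The labels give no sex, so larval sex cannot be told apart from the system or, within optix, from yki3SA. Its part in the results below was not tested.

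At an adjusted p under 0.05 in edgeR's quasi-likelihood test, the yki3SA response differed between the systems for 1371 of the 8693 genes (15.8%). Of these, 674 (7.75%) had the higher change in optix and 697 (8.02%) the lower one, and 785 differed at least 2-fold. More genes were called in MARCM: 3575 (41.1%), 1731 up (19.9%) and 1844 down (21.2%). In optix 1699 (19.5%) were called, 784 up (9.02%) and 915 down (10.5%). The optix contrast was also the less precise, with a median SE of 0.24 on the log2 scale against 0.16 in MARCM, as it rests on 5 libraries rather than 10. Without optix yki3SA replicate 2 the count of differing genes was 756, of which 691 were among the 1371, and the optix count was 818.

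The 1371 genes were mostly genes called in a single system. Among them 387 were called up and 321 down in MARCM alone, and 147 up and 102 down in optix alone. A further 93 rose in optix and fell in MARCM, and 40 did the opposite. Others moved the same way in both systems: 77 fell more in optix and 67 fell more in MARCM, while 11 rose more in optix and 52 rose more in MARCM. The remaining 74 were called in neither contrast alone.

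**Figure D1:**
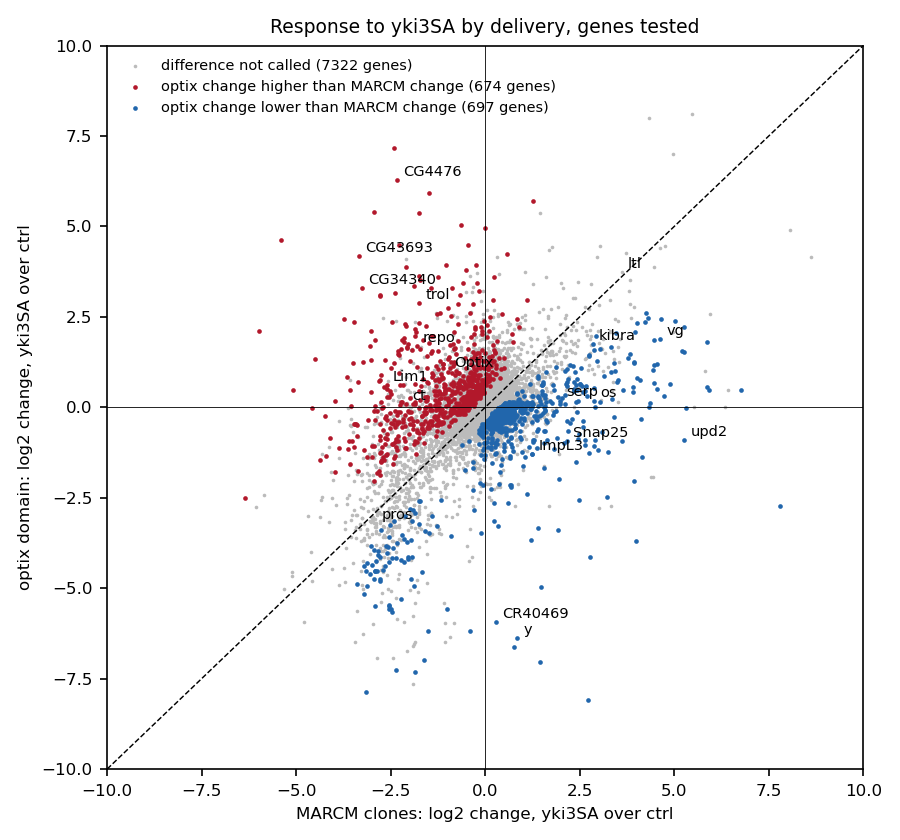
Log2 change of yki3SA over ctrl for each of the 8693 genes tested, in MARCM clones (x axis) and in the optix domain (y axis); the dashed line marks equal change. Red points are the 674 genes with the higher change in optix and blue points the 697 with the lower change, at an adjusted p under 0.05; trol lies far above the line and upd2 far below it.

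Many genes of antennal and eye-field identity fell in the clones and had a higher change in the optix discs. Lim1 (chrX:8756539-8805804, dm6), a LIM-homeodomain factor of the antennal and head field, was measured at 78.1, 65.9 and 91.1 CPM in optix ctrl and 105 and 134 CPM in optix yki3SA. In MARCM it went from 100, 115, 112, 115 and 122 CPM in ctrl to 14.5, 13.4, 24.4, 21.8 and 19.3 CPM in yki3SA. Both optix yki3SA libraries were above all 3 controls, and all 5 MARCM yki3SA libraries were far below theirs. The log2 difference was 3.22 ± 0.23 (adjusted p = 4.37e-09), made of a rise of 0.61 ± 0.19 in optix and a change of -2.61 ± 0.14 in MARCM. The homeobox gene cut (ct), an antennal selector that also answers Notch, stood at 210, 255 and 230 CPM in optix ctrl and 277 and 219 in optix yki3SA. In MARCM it dropped from between 161 and 179 CPM to between 37.4 and 43.8 CPM. The optix ranges overlapped and the MARCM ranges did not (log2 difference 2.20 ± 0.15, adjusted p = 1.96e-09).

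Of the 16 antennal genes tested, 7 had the higher change in optix (Lim1, ct, al, ss, Dll, danr and hth) and none the lower one, beside 7.75% and 8.02% of all genes. Their median log2 change was -0.11 in optix and -1.48 in MARCM, and the median difference was 0.66 against 0.02 over all genes. The factor spineless (ss), which sets antennal against leg fate, was at 58.7 ± 3.06 CPM in optix ctrl and 50.9 ± 3.24 (n = 2) in optix yki3SA, and went from 68.5 ± 15.7 to 13.6 ± 2.72 CPM (n = 5 each) in MARCM (log2 difference 2.14 ± 0.26, adjusted p = 4.49e-06). Distal-less (Dll), the distal appendage selector, stood at 121 ± 18.6 and 121 ± 5.17 CPM in optix but fell from 120 ± 8.84 to 51.7 ± 3.66 CPM in the clones. The antennal genes danr and dan were reduced in both: danr fell from 44.1 ± 6.61 to 12.5 ± 3.38 CPM in optix and from 52.2 ± 3.78 to 7.04 ± 1.92 CPM in MARCM (difference 1.06 ± 0.30, adjusted p = 0.0178).

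Of 17 retinal determination and eye progenitor genes, 8 had the higher change in optix and 1, so, the lower. The shares over all genes were 7.75% and 8.02%. The median difference of the list was 0.69, from median changes of -0.43 in optix and -1.53 in MARCM. Optix itself, the gene whose regulatory sequence drives Gal4 in the optix stocks, was measured at 131, 150 and 96.9 CPM in optix ctrl and 302 and 198 in optix yki3SA. In the clones it fell from 138, 132, 132, 104 and 98.1 CPM to 64.7, 61, 64.2, 62.2 and 51.3 CPM. The groups did not overlap in either system, and the directions were opposite: log2 changes of 0.99 ± 0.18 in optix and -0.99 ± 0.13 in MARCM, a difference of 1.98 ± 0.22 (adjusted p = 1.65e-06). The Pax6 gene twin of eyeless (toy), at the top of the retinal hierarchy, stood between 390 and 444 CPM in optix ctrl and at 502 and 534 in optix yki3SA. In the clones toy dropped from between 368 and 421 CPM to between 113 and 160 CPM (difference 1.81 ± 0.20, adjusted p = 1.29e-06).

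The Pax-family gene eyegone (eyg), required for growth of the eye disc, also differed, by 2.06 ± 0.23 (adjusted p = 1.65e-06). It stood at 90.4 ± 11 and 66.9 ± 0.825 CPM in optix ctrl and yki3SA, and fell from 81.6 ± 6.04 to 14.5 ± 3.32 CPM in MARCM. The later-acting sine oculis (so) went the other way: it fell from 53.2 ± 10.5 to 8.71 ± 2.31 CPM in optix and from 52.5 ± 9.24 to 15.8 ± 2.84 CPM in MARCM. Its difference of -0.86 ± 0.29 had an adjusted p of 0.0432 and lost its call in many of the settings tried, so the larger fall in optix is not firm.

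**Figure D2:**
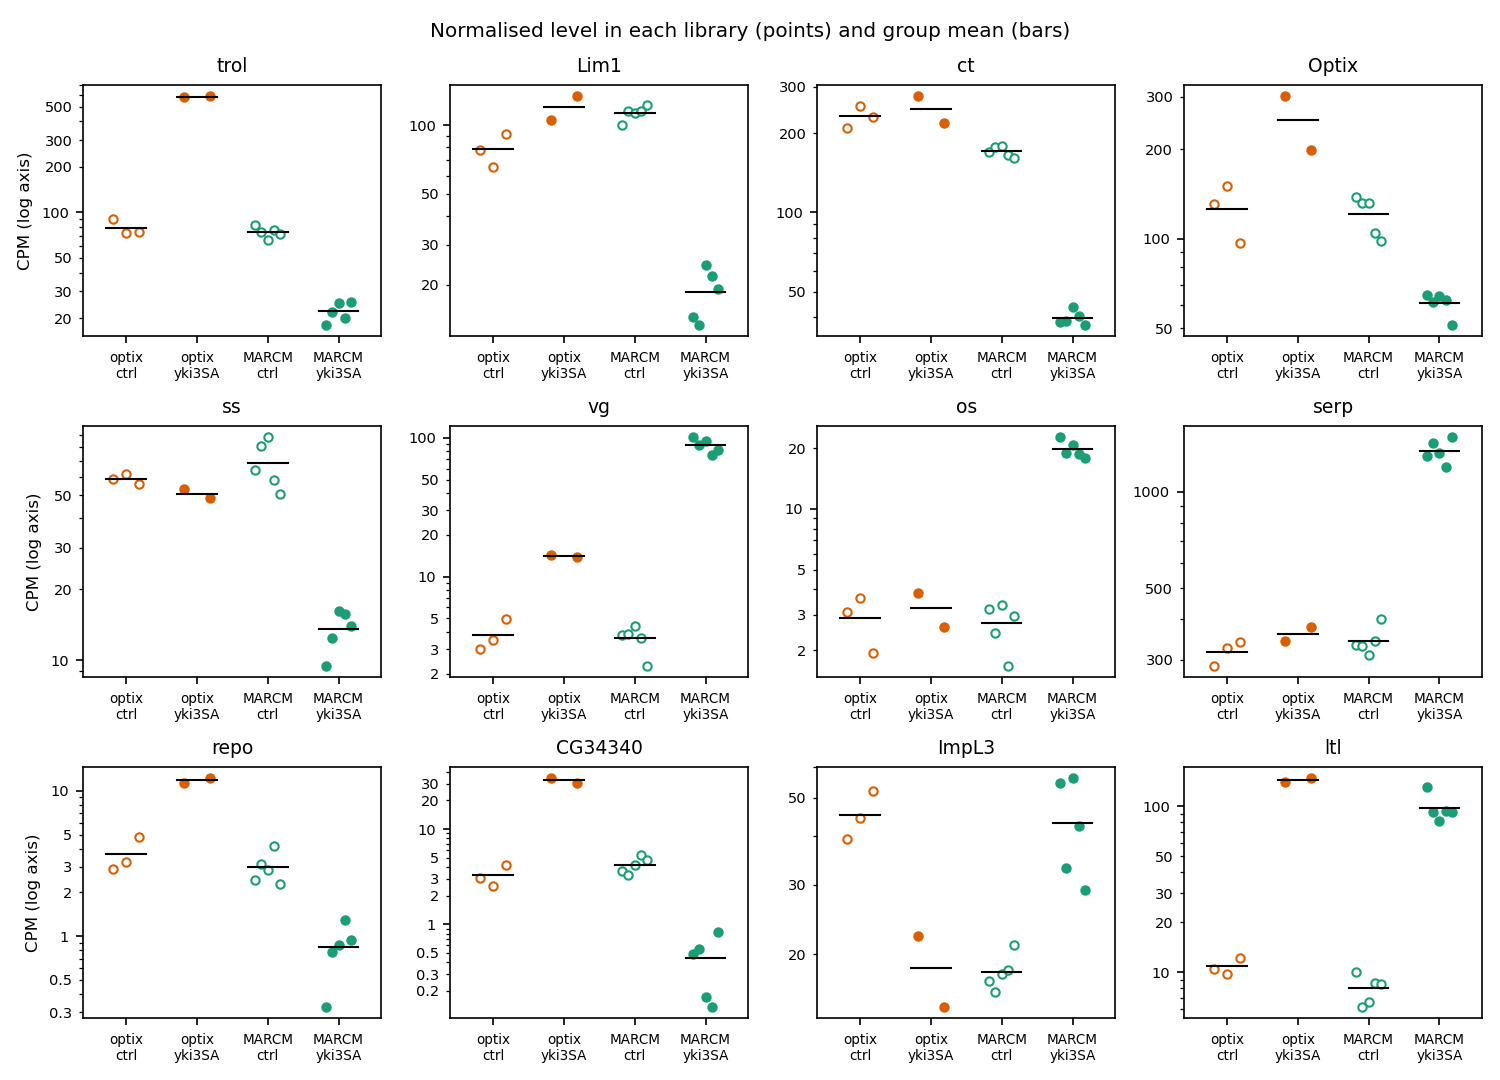
CPM of 12 genes in each of the 15 libraries, on log axes that differ between panels; open circles are ctrl and filled circles yki3SA libraries, orange is optix and green is MARCM, and bars are group means. For ct and ss the optix groups sit together while the 5 MARCM yki3SA libraries fall below, for os and serp the MARCM yki3SA libraries rise alone, and for trol, Optix, repo and CG34340 the 2 systems move in opposite directions.

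Notch pathway genes showed the same split, and held the highest share of called members among the lists. Of 17 Notch targets and modifiers tested, 13 had the higher change in optix and 1 the lower, 82.4% in all against 15.8% of all genes. Their median log2 change was -0.33 in optix and -2.19 in MARCM, with a median difference of 1.43. The Enhancer of split genes are the direct Notch targets, repressors that block neural fate, and the Bearded-family genes beside them modulate Notch. E(spl)m7-HLH stood at 52.3 ± 9.32 and 41.6 ± 4.56 CPM in optix ctrl and yki3SA and fell from 55.3 ± 3.22 to 12.3 ± 2.85 CPM in the clones (difference 1.83 ± 0.23, adjusted p = 9.45e-06). E(spl)malpha-BFM stood at 257 ± 41.6 and 192 ± 12.7 CPM in optix and fell from 278 ± 25.5 to 55.2 ± 10.4 CPM in the clones (difference 1.91 ± 0.21, adjusted p = 1.25e-06).

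The receptor N and the ligand Dl differed by less. N stood at 703 ± 58.8 and 692 ± 86.6 CPM in optix and fell from 757 ± 39.2 to 517 ± 46.8 CPM in MARCM (difference 0.53 ± 0.13, adjusted p = 0.00793). Dl differed by 0.56 ± 0.11 (adjusted p = 0.00154). The neural progenitor repressor dpn, at 3.16, 2.38 and 4.63 CPM in optix ctrl and 3.72 and 12 in optix yki3SA, fell from between 6.25 and 7.63 CPM to between 0.774 and 2.09 CPM in the clones. Its difference of 3.62 ± 0.47 had an adjusted p of 1.15e-05, although 1 of the 2 optix yki3SA libraries lay within the range of its controls. E(spl)mgamma-HLH was the exception in the list: it fell in both systems, from 593 ± 141 to 41.9 ± 13 CPM in optix and from 421 ± 78.8 to 52.3 ± 6.79 CPM in MARCM. Its larger fall in optix had an adjusted p of 0.0463 and lost the call in 10 of the 15 refits that left out 1 library.

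Most photoreceptor and neuronal genes on the lists fell in both systems, and some had the lower change in the optix discs. Of 27 photoreceptor differentiation genes, 24 fell in optix and 25 in MARCM, with median changes of -2.59 and -2.41, while 6 had the lower and 5 the higher change in optix. Over all genes, 10.5% fell in optix and 21.2% in MARCM, and 8.02% had the lower and 7.75% the higher change. The zinc-finger gene scratch (scrt), a neuronal factor, stood at 428, 527 and 502 CPM in optix ctrl and at 26.6 and 20.4 in optix yki3SA. In MARCM it went from between 377 and 463 CPM to between 52.7 and 85.9 CPM. The groups were far apart in both systems, and the fall was larger in optix, -4.37 ± 0.19 against -2.64 ± 0.11 on the log2 scale (difference -1.73 ± 0.19, adjusted p = 1.79e-06). The intramembrane protease roughoid (ru), which releases the EGFR ligand, fell to 4.57 ± 1.18 CPM from 138 ± 13.2 in optix and to 8.56 ± 2.33 from 74.5 ± 8.31 in MARCM. The factor glass (gl), needed for photoreceptor differentiation, fell from 127 ± 19.2 to 7.68 ± 2.38 CPM in optix and from 80.3 ± 14.8 to 11.2 ± 2.82 CPM in MARCM (difference -1.24 ± 0.30, adjusted p = 0.00724).

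The photoreceptor-subtype gene seven-up (svp) and the head gene orthodenticle (oc) went the other way. For svp the levels were 38.7, 31.3 and 49.5 CPM in optix ctrl and 51 and 69 in optix yki3SA, and in MARCM between 30 and 42.5 CPM in ctrl and between 9.55 and 13.7 CPM in yki3SA. The difference was 2.28 ± 0.23 (adjusted p = 5.35e-07). The count of 6 photoreceptor genes with the lower change in optix was 2 without optix yki3SA replicate 2 and 2 with the MARCM libraries of run 2 added, which also ended the call of ru. With the replicate numbers as a block in both systems the 5 with the higher change became 3.

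Of 18 neuronal genes tested, 13 fell and none rose in optix, while in MARCM 13 fell and 3 (Snap25, Syx1A and unc-13) rose. Among the 18, 8 had the lower change in optix and none the higher, with median changes of -2.55 in optix and -1.98 in MARCM. Over all genes, 10.5% fell and 9.02% rose in optix, and 21.2% fell and 19.9% rose in MARCM. The lower change was called for 8.02% of all genes and the higher for 7.75%. The synaptic vesicle gene nSyb fell from 45.7 ± 13.3 to 2.38 ± 0.538 CPM in optix and from 36.6 ± 4.71 to 6.4 ± 1.32 CPM in MARCM (difference -1.74 ± 0.35, adjusted p = 0.00159). The calcium sensor of vesicle release Syt1 fell from 23.6 ± 5.89 to 4.01 ± 0.234 CPM in optix and from 17.3 ± 3.38 to 7.74 ± 1.93 CPM in MARCM. Snap25, a SNARE of the synapse, rose in MARCM from between 0.485 and 1.16 CPM to between 2.6 and 4.75 CPM. In optix Snap25 stood at 3.76, 3.5 and 3.09 CPM in ctrl and 1.2 and 2.35 in yki3SA (difference -3.08 ± 0.50, adjusted p = 0.000161). The neuronal count was 5 without optix yki3SA replicate 2, and 2 when the MARCM libraries of run 2 were added, which ended the call of nSyb.

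**Figure D3:**
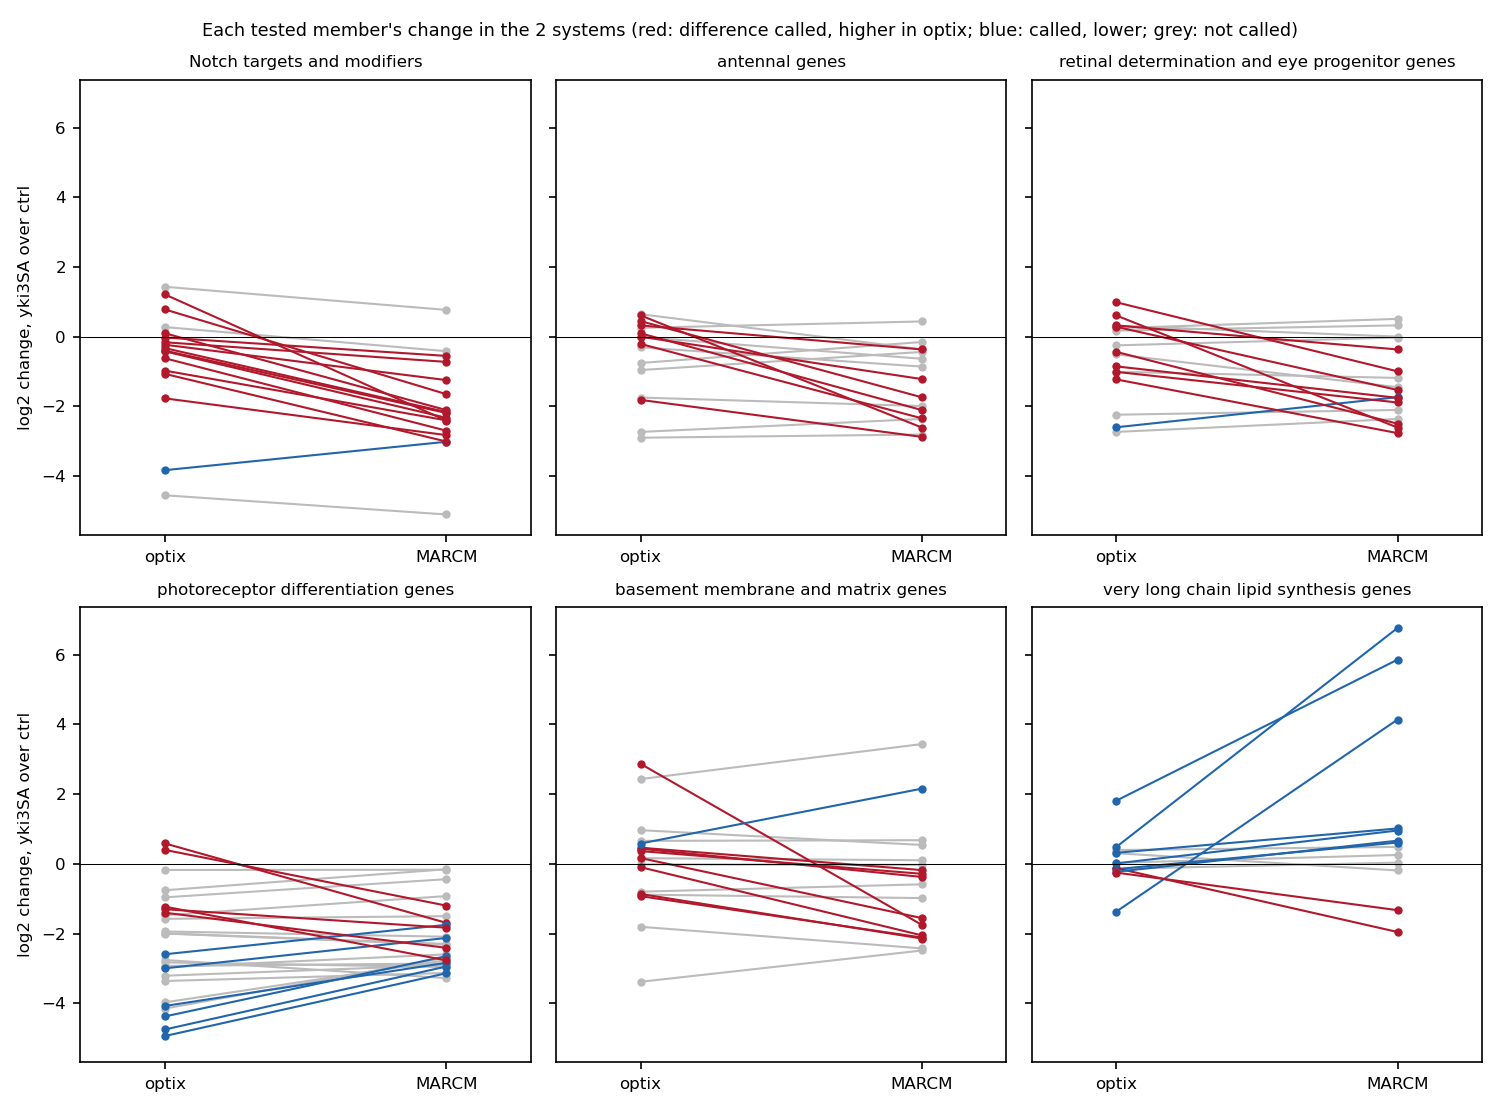
Log2 change of yki3SA over ctrl of each tested member of 6 gene lists, in optix (left end of each line) and in MARCM (right end). Red and blue lines are members called for the difference; 13 of 17 Notch genes slope down to the right, most photoreceptor genes are below 0 at both ends, and 7 of 13 very long chain lipid genes rise to the right.

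Transcripts of the basement membrane diverged as well, led by trol (chrX:2470460-2545427, dm6), which encodes perlecan, the heparan sulphate proteoglycan of that matrix. It was measured at 90.4, 73 and 74.6 CPM in optix ctrl and at 575 and 588 CPM in optix yki3SA. In MARCM it went from 82.7, 74.3, 65.6, 76.5 and 71.7 CPM to 18, 21.9, 25.3, 20.1 and 25.7 CPM. No ctrl and yki3SA library overlapped in either system and the directions were opposite: 2.87 ± 0.14 in optix and -1.75 ± 0.10 in MARCM. The difference was 4.62 ± 0.17 (adjusted p = 7.5e-14).

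Of 18 basement membrane and matrix genes, 8 had the higher change in optix and 1, the matrix metalloprotease Mmp1, the lower. The shares over all genes were 7.75% and 8.02%. The median difference of the list was 0.52. The laminin subunit LanB2 rose from 77.2 ± 4.9 to 105 ± 0.0589 CPM in optix and fell from 79 ± 3.06 to 60.9 ± 7.69 CPM in MARCM (difference 0.81 ± 0.14, adjusted p = 0.00037), and LanB1 differed by 0.64 ± 0.11 (adjusted p = 0.000388). The type IV collagen chains vkg and Cg25C fell in both systems and further in MARCM: Cg25C went from 40 ± 11.1 to 21.1 ± 4.06 CPM in optix and from 48.4 ± 7.09 to 11.1 ± 2.89 CPM in MARCM. BM-40-SPARC, a collagen-binding protein of the matrix, stood at 24.2 ± 2.54 and 22.7 ± 2.13 CPM in optix and fell from 31.8 ± 4.93 to 7.63 ± 1.85 CPM in the clones. Hemocytes, the blood cells, are known makers of these proteins, and the summed level of 11 hemocyte markers was 267 to 656 CPM in optix ctrl, 104 to 140 in optix yki3SA, 216 to 511 in MARCM ctrl and 65.7 to 82.2 in MARCM yki3SA. None of the 11 was at 0 in any group. Of the 10 tested, 5 fell in optix and 9 in MARCM, beside 10.5% and 21.2% of all genes. None was called for the difference, but their median difference was 0.86, from median changes of -1.24 in optix and -2.50 in MARCM. The part of hemocytes in these values was not tested.

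More targets of Yki itself had the lower change in the optix discs than the higher. Of 21 Yki target genes, 14 rose in MARCM and 7 in optix, beside 19.9% and 9.02% of all genes. More genes of any kind were thus called up in MARCM. For the difference 8 targets had the lower change in optix and 2 the higher, beside 8.02% and 7.75% of all genes. The scaffold kibra, an upstream activator of Warts and a feedback target of Yki, stood at 56.9, 48.9 and 62.5 CPM in optix ctrl and 163 and 213 in optix yki3SA. In MARCM kibra went from 42.3, 48, 43.1, 49 and 49.5 CPM to 341, 321, 334, 348 and 320 CPM. It rose in both systems without overlap, by 1.74 ± 0.12 and 2.84 ± 0.09 on the log2 scale (difference -1.10 ± 0.15, adjusted p = 1.76e-05). The Golgi kinase four-jointed (fj) did the same, rising by 0.66 ± 0.11 in optix and 1.20 ± 0.08 in MARCM.

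Other pathway brakes rose in the clones alone. The FERM-domain regulator expanded (ex), a standard read-out of Yki activity, stood at 137, 153 and 93 CPM in optix ctrl and 167 and 116 in optix yki3SA. In MARCM ex went from between 52.4 and 74.7 CPM to between 175 and 200 CPM. The optix groups overlapped and the MARCM groups did not (difference -1.47 ± 0.23, adjusted p = 8.98e-05); the ex level of optix ctrl, 128 ± 31.3 CPM, was itself above that of MARCM ctrl, 61.6 ± 9.32. The kinase gene wts stood at 203 ± 23.1 and 210 ± 27.7 CPM in optix and rose from 182 ± 19.4 to 386 ± 56.4 CPM in MARCM (difference -1.04 ± 0.18, adjusted p = 0.000299). All 5 Hippo pathway components called among 27 (fj, kibra, ex, wts and sd) had the lower change in optix, and there were 8 without optix yki3SA replicate 1. The share called, 18.5%, was near the 15.8% of all genes tested, and all but sd are also among the Yki targets counted above. The growth factor gene dm (Myc) was one of 2 targets with the higher change in optix: 305, 234 and 355 CPM in optix ctrl, 518 and 750 in optix yki3SA, and 412 ± 13.3 and 498 ± 38.9 CPM in MARCM. Its difference of 0.81 ± 0.17 (adjusted p = 0.00236) lost the call without optix yki3SA replicate 2. The caspase inhibitor th (Diap1), a classical Yki target, was not called for the difference (-0.40 ± 0.14, adjusted p = 0.0602); it stood at 372 ± 24.8 and 372 ± 21.7 CPM in MARCM and fell in optix from 386 ± 62.8 to 293 ± 20.3 CPM.

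Ligands of the JAK-STAT pathway separated the systems. The ligand os (unpaired 1) was measured at 3.08, 3.64 and 1.93 CPM in optix ctrl and 3.84 and 2.61 in optix yki3SA. In MARCM os went from 3.21, 2.42, 3.34, 1.67 and 2.95 CPM to 22.7, 19, 20.7, 18.8 and 17.9 CPM. The optix values overlapped and every MARCM yki3SA value was above every control (difference -2.71 ± 0.38, adjusted p = 2.78e-05). Its relative upd2 stood between 0.561 and 0.868 CPM in optix ctrl, at 0.6 and 0.174 in optix yki3SA, between 0.0981 and 0.242 in MARCM ctrl and between 5.75 and 8.02 in MARCM yki3SA (difference -6.16 ± 0.60, adjusted p = 3.62e-07). Counts of upd2 summed to 20 in optix ctrl, 7 in optix yki3SA and 10 in MARCM ctrl. Among the 15 libraries MARCM yki3SA carried upd2 past the expression filter, so its optix change rests on few counts.

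The receptor dome and the feedback inhibitor Socs36E followed at smaller size. Socs36E stood at 110 ± 3.01 and 107 ± 15 CPM in optix and rose from 105 ± 10.1 to 169 ± 18.2 CPM in MARCM (difference -0.73 ± 0.15, adjusted p = 0.00198), and dome differed by -0.64 ± 0.16 (adjusted p = 0.00772). Mmp1, also a target of JNK signalling, stood at 43.1 ± 4.26 and 64.7 ± 10.4 CPM in optix and rose from 28.2 ± 9.63 to 125 ± 11.3 CPM in MARCM; its difference of -1.57 ± 0.31 (adjusted p = 0.00149) lost the call with run 2 added. The pro-apoptotic gene reaper (rpr) went the other way, from 18.9 ± 5.57 to 36.9 ± 10.2 CPM in optix and from 10.1 ± 1.68 to 6.3 ± 2.53 CPM in MARCM (difference 1.65 ± 0.41, adjusted p = 0.00937). In all, 7 of 26 JNK, JAK-STAT and wound response genes had the lower change in optix and 2 the higher. The shares over all genes were 8.02% and 7.75%.

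Selectors of other body regions moved both ways in the clones: of 15 selectors of the wing and other discs tested, 7 rose and 5 fell in MARCM, and 1 rose and 3 fell in optix. For the difference 3 were called in each direction. Over all genes, 19.9% rose and 21.2% fell in MARCM, 9.02% rose and 10.5% fell in optix, and 15.8% were called for the difference. The wing selector vestigial (vg), a partner of Scalloped in wing fate, was measured at 2.99, 3.5 and 4.92 CPM in optix ctrl and 14.4 and 13.8 in optix yki3SA. In MARCM vg went from 3.8, 3.88, 4.42, 3.61 and 2.28 CPM to 101, 88.6, 95.5, 75.4 and 81.3 CPM. It rose in both systems without overlap, and far more in the clones (difference -2.74 ± 0.34, adjusted p = 6.79e-06). The Hox gene Deformed (Dfd), which patterns the maxillary part of the disc, stood at 36.8 ± 13 and 34.2 ± 0.676 CPM in optix and rose from 28.2 ± 3.01 to 102 ± 13.2 CPM in MARCM (difference -1.98 ± 0.25, adjusted p = 1.07e-05). The GATA factor pannier (pnr), of the dorsal margin, stood at 24.9 ± 3.12 and 21.4 ± 0.279 CPM in optix and fell from 24.4 ± 2.63 to 5.61 ± 2.38 CPM in MARCM.

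**Figure D4:**
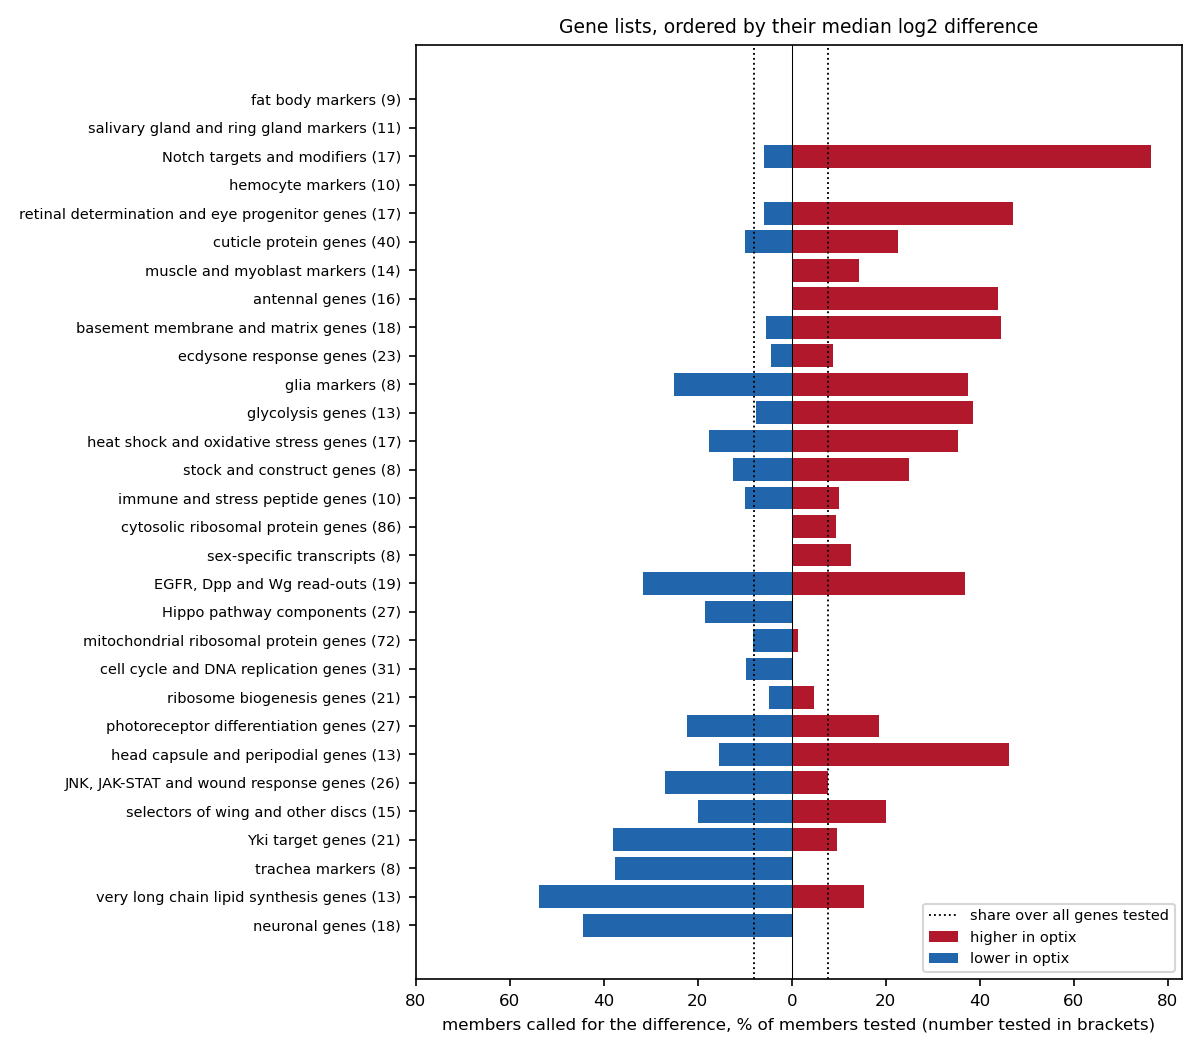
Share of tested members of each gene list called for the difference, higher in optix to the right in red and lower in optix to the left in blue, ordered by the list's median log2 difference; dotted lines mark 7.75% and 8.02%, the shares over all genes tested. The Notch list reaches furthest to the right, and the very long chain lipid and neuronal lists furthest to the left.

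A group of genes of very long chain lipid synthesis rose in the clones and was not called in the optix discs. Of 25 list members 13 passed the expression filter. None of the 13 was called in optix in either direction, while 8 rose and 2 fell in MARCM. For the difference 7 had the lower and 2 the higher change in optix. Over all genes, 19.5% were called in optix, 19.9% rose and 21.2% fell in MARCM, and 8.02% had the lower and 7.75% the higher change. Some list members were nearly absent outside MARCM yki3SA. CG5278 summed to 5 counts in optix ctrl, 5 in optix yki3SA, 4 in MARCM ctrl and 468 in MARCM yki3SA. For CG17374 the sums were 10, 24, 12 and 662 in that order. Among the 15 libraries MARCM yki3SA carried both genes past the filter, so the lack of optix calls is partly set by it. The elongase gene bond stood at 0.171, 1.54 and 0.579 CPM in optix ctrl and 0.48 and 0.0869 in optix yki3SA. In MARCM bond went from 0.169, 2.06, 0.981, 1.03 and 1.01 CPM to 19, 20.3, 25.1, 10.7 and 15.6 CPM. Only the MARCM groups were apart (difference -5.51 ± 1.08, adjusted p = 0.00128). The elongase gene Baldspot stood at 133 ± 4.61 and 120 ± 2.18 CPM in optix and rose from 93.3 ± 2.57 to 143 ± 9.73 CPM in MARCM (difference -0.76 ± 0.13, adjusted p = 0.000271). The count of 7 was 3 when only genes averaging 10 CPM or more were tested, which left out the lowly expressed members.

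Trachea markers and genes of the cuticle lay beside this. The chitin deacetylase serp stood at 287, 325 and 341 CPM in optix ctrl and 343 and 380 in optix yki3SA. In MARCM serp went from 333, 330, 310, 342 and 402 CPM to 1294, 1419, 1318, 1193 and 1480 CPM. The MARCM groups were far apart, and the optix yki3SA libraries were barely above the highest control (difference -1.78 ± 0.14, adjusted p = 1.85e-08). The chitin-binding Gasp rose in both, from 171 ± 8.65 to 278 ± 87.1 CPM in optix and from 222 ± 21.3 to 640 ± 67.6 CPM in MARCM. The tracheal selector trh was between 0 and 1.68 CPM in optix ctrl, 0.84 and 0.261 in optix yki3SA, between 0 and 1.94 in MARCM ctrl and between 8.96 and 13 in MARCM yki3SA; its difference of -4.43 ± 1.23 (adjusted p = 0.0192) lost the call without optix yki3SA replicate 2 and without optix ctrl replicate 2. The 8 trachea markers summed to 1135 to 1783 CPM in optix ctrl, 1415 to 1658 in optix yki3SA, 1555 to 2112 in MARCM ctrl and 2917 to 3510 in MARCM yki3SA, with none at 0. The part of trachea in the lipid and cuticle values was not tested.

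Of 40 cuticle protein genes tested, 9 had the higher change in optix and 4 the lower, beside 7.75% and 8.02% of all genes. The median difference of 0.69 changed sign, to -0.30, when all 101 cuticle genes with counts were tested, and to -0.19 when only those averaging 10 CPM or more were tested, which left 9 genes with 3 higher and 2 lower. It was -0.17 without both optix ctrl 2 and optix yki3SA 1, 1.69 without optix ctrl replicate 1, 0.10 without optix yki3SA replicate 1 and 0.38 without optix ctrl replicate 2, so no direction is drawn for the list. Cpr12A went from 2.07 ± 0.846 to 81.8 ± 11.5 CPM in MARCM and stood at 0.758 ± 0.19 and 2.2 ± 1.07 CPM in optix (difference -3.73 ± 0.76, adjusted p = 0.00219). TwdlT fell from 8.92 ± 1.6 to 1.38 ± 0.4 CPM in MARCM and stood at 3.92 ± 0.811 and 5.79 ± 2.25 CPM in optix (difference 3.25 ± 0.39, adjusted p = 4.36e-06). Cyp18a1, which inactivates the moulting hormone ecdysone, rose from 7.88 ± 2.17 to 65.8 ± 6.19 CPM in the clones and stood at 10.7 ± 7.08 and 11.6 ± 0.15 CPM in optix (difference -2.91 ± 0.59, adjusted p = 0.00235). Of 23 ecdysone response genes, ImpE2 and Eip75B had the higher change in optix and Cyp18a1 the lower, 13% in all. That share was below the 15.8% of all genes tested. The count of 2 higher was 7 with the replicate block in both systems, 5 without optix ctrl replicate 3, 4 without optix yki3SA replicate 1 and 1 without optix yki3SA replicate 2 or with run 2 added.

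The glial genes repo and wrapper rose in optix and fell in the clones. The glial master regulator repo was measured at 2.91, 3.22 and 4.82 CPM in optix ctrl and 11.4 and 12.3 in optix yki3SA. In MARCM repo went from 2.45, 3.15, 2.85, 4.18 and 2.28 CPM to 0.327, 0.774, 0.872, 1.29 and 0.938 CPM. The groups did not overlap in either system (difference 3.50 ± 0.45, adjusted p = 1.22e-05). The glial surface protein gene wrapper moved the same way, from 1.28 ± 0.851 to 4.59 ± 0.968 CPM in optix and from 1.8 ± 0.505 to 0.643 ± 0.243 CPM in MARCM (difference 3.27 ± 0.63, adjusted p = 0.000988). The glutamine synthetase gene Gs2 fell from 26.9 ± 7.22 to 4.79 ± 1.63 CPM in MARCM and stood at 27.3 ± 6.92 and 35.1 ± 11.4 CPM in optix. Of the 8 glia markers tested, 3 had the higher and 2, moody and nrv2, the lower change in optix. The shares over all genes were 7.75% and 8.02%. Over all 11 markers the summed level was 623 to 749 CPM in optix ctrl, 534 to 717 in optix yki3SA, 504 to 640 in MARCM ctrl and 466 to 533 in MARCM yki3SA. That sum is made mainly of abundant markers such as bnb, at 403 ± 45.5 CPM in optix ctrl, so repo and wrapper weigh little in it. The marker alrm was at 0 in optix ctrl and in MARCM ctrl and gcm in optix yki3SA, and the part of glial cell number was not tested.

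Of 13 glycolysis genes tested, 5 had the higher change in optix (Pfk, Gapdh2, Tpi, Pgi and Pglym78), 1, the lactate dehydrogenase gene ImpL3, the lower, and the others were not called for the difference. In MARCM 9 of the 13 fell and 1 rose, and in optix 3 fell and 2 rose. Tpi fell in both systems. Over all genes, 21.2% fell and 19.9% rose in MARCM, and 10.5% fell and 9.02% rose in optix. The higher change was called for 7.75% of all genes and the lower for 8.02%. Phosphofructokinase (Pfk), the committed step, stood at 56.1, 57.7 and 49.1 CPM in optix ctrl and 94.7 and 97.6 in optix yki3SA. In MARCM Pfk went from between 58.7 and 76.3 CPM to between 26.5 and 33.4 CPM. The groups were apart and opposite in direction (difference 1.96 ± 0.21, adjusted p = 9.23e-07). ImpL3 (Ldh) was the reverse: 39.2, 44.4 and 52.1 CPM in optix ctrl against 22.2 and 14.7 in optix yki3SA, and 17.1, 16, 17.8, 18.2 and 21.2 CPM in MARCM ctrl against 54.5, 33, 56.1, 42.3 and 29.1 in MARCM yki3SA. Its difference was -2.55 ± 0.46 (adjusted p = 0.000944), and the level of optix ctrl, 45.3 ± 6.46 CPM, was near that of MARCM yki3SA, 43 ± 12.2.

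The small heat shock genes Hsp23, Hsp26, Hsp27 and Hsp67Ba fell in the clones and had the higher change in optix. Hsp23 stood at 1734, 1154 and 2264 CPM in optix ctrl and 1445 and 1026 in optix yki3SA, and in MARCM went from between 2181 and 2526 CPM to between 151 and 331 CPM (difference 2.99 ± 0.35, adjusted p = 1.26e-05). The glutathione S-transferase gene GstD1, an oxidative stress read-out, stood at 694 ± 99.4 and 874 ± 98.2 CPM in optix and rose from 652 ± 64.8 to 1864 ± 154 CPM in MARCM (difference -1.18 ± 0.15, adjusted p = 1.22e-05). Of 17 heat shock and oxidative stress genes 6 had the higher and 3 the lower change in optix. The shares over all genes were 7.75% and 8.02%. The 6 became 3 in 5 of the refits that left out 1 library: optix ctrl replicate 1 or 2, MARCM ctrl replicate 4 or 5, or MARCM yki3SA replicate 2.

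Signals of the EGFR, Dpp and Wg pathways were split, with 7 of 19 read-outs higher and 6 lower in optix. The shares over all genes were 7.75% and 8.02%. The T-box gene bi (optomotor-blind), a Dpp target, stood at 217, 213 and 170 CPM in optix ctrl and 194 and 175 in optix yki3SA, and fell from between 195 and 222 CPM to between 42.4 and 59.1 CPM in MARCM (difference 1.90 ± 0.17, adjusted p = 1.01e-07). The EGFR ligand spi fell from 304 ± 59.9 to 188 ± 42.7 CPM in optix and rose from 250 ± 20.6 to 332 ± 51.8 CPM in MARCM (difference -1.10 ± 0.21, adjusted p = 0.000914). Egfr itself stood at 283 ± 21 and 292 ± 29.3 CPM in optix and rose from 250 ± 9.95 to 413 ± 24.6 CPM in MARCM. Without optix yki3SA replicate 2 the 7 and 6 became 4 and 3, without optix ctrl replicate 2 the 6 became 3, and with the MARCM libraries of run 2 added the 7 became 3.

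Few growth and division genes were called for the difference. Of 31 cell cycle and DNA replication genes, 3 had the lower change in optix (stg, PCNA and ial) and none the higher, 9.68% in all. That share was below the 15.8% of all genes tested. The Cdc25 phosphatase gene string (stg), which triggers mitosis, fell from 518 ± 75.2 to 339 ± 32.3 CPM in optix and rose from 631 ± 51.2 to 820 ± 78 CPM in MARCM (difference -0.99 ± 0.15, adjusted p = 8.98e-05). The count of 3 was 1 without optix yki3SA replicate 2, 6 without optix ctrl replicate 3, 5 without optix yki3SA replicate 1 and without MARCM yki3SA replicate 5, and 8 with the replicate block in both systems. Of 86 cytosolic ribosomal protein genes 8 had the higher change in optix, a count that was 0 without optix yki3SA replicate 2, 3 without optix ctrl replicate 2, 13 without MARCM yki3SA replicate 1, and 18 without optix yki3SA replicate 1 or optix ctrl replicate 3. Of 72 mitochondrial ribosomal protein genes 6 had the lower change, against 1 without optix yki3SA replicate 2 or optix ctrl replicate 2, 12 without optix ctrl replicate 3, and 14 without optix yki3SA replicate 1 or with that block. The shares called in either direction, 9.3% of the cytosolic and 9.72% of the mitochondrial genes, were also below the 15.8% of all genes. No direction is therefore drawn from either ribosomal list.

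The genes with the highest differences in favour of optix were low in optix ctrl and in both MARCM groups. CG34340 (chr2L:3662745-3692114, dm6), the homeobox gene Drgx, was measured at 3.08, 2.52 and 4.24 CPM in optix ctrl and 34.4 and 30.6 in optix yki3SA. In MARCM CG34340 went from 3.63, 3.27, 4.22, 5.28 and 4.72 CPM to 0.49, 0.553, 0.174, 0.136 and 0.833 CPM. Within each system ctrl and yki3SA did not overlap, and the directions were opposite (difference 6.55 ± 0.46, adjusted p = 2.19e-09). An absence of overlap was part of the rule that named the genes of largest difference and opposite calls, so it is no added support. The lipoprotein-like gene crossveinless d (cv-d), which binds BMP ligands, rose from 3.74 ± 1.12 to 56 ± 4.16 CPM in optix and fell from 4.02 ± 0.739 to 0.973 ± 0.287 CPM in MARCM (difference 5.99 ± 0.34, adjusted p = 1.01e-10). CG1537 rose from between 0.579 and 1.88 CPM to 51.4 and 60.6 CPM in optix and stayed at or below 1.09 CPM in every MARCM library. CCHa2-R, a receptor for the neuropeptide CCHamide-2, rose from at most 0.772 CPM to 16.4 and 12.8 CPM in optix and was not called in MARCM (difference 5.68 ± 0.91, adjusted p = 0.000143). CG4476 held 12.6 and 15.3 CPM in optix yki3SA and at most 0.759 CPM in the other libraries of the comparison. CG43693 reached 10.2 and 35.6 CPM in optix yki3SA against at most 2.19 CPM in those others, while the MARCM ctrl libraries of run 2 held 5 and 5.72 CPM of it. Counts of CCHa2-R summed to only 16 in MARCM ctrl and 9 in MARCM yki3SA. Among the 15 libraries optix yki3SA carried CCHa2-R and CG4476 past the expression filter. The lack of a MARCM call for CCHa2-R is partly set by that filter.

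Other genes that moved in opposite directions included Ect3, a beta-galactosidase gene, which rose from 2.81 ± 0.885 to 24.7 ± 1.47 CPM in optix and fell from 2.13 ± 0.826 to 0.399 ± 0.249 CPM in MARCM. The FGF ligand pyr fell in optix, from 18.1, 27.3 and 31.1 CPM to 11.3 and 12.5, and rose in MARCM from between 30.2 and 35.1 CPM to between 64.5 and 87.2 CPM (difference -2.26 ± 0.25, adjusted p = 1.58e-06). CG32082, the membrane-bending adaptor IRSp53, fell from 25.1 ± 6.42 to 13.4 ± 0.961 CPM in optix and rose from 20.3 ± 5.78 to 49.3 ± 11.8 CPM in MARCM (difference -2.18 ± 0.35, adjusted p = 0.000161). CG32645 fell from 16.8 ± 9.44 to 5.29 ± 0.839 CPM in optix and rose from 15.1 ± 1.96 to 44.6 ± 2.59 CPM in MARCM.

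A few of the most negative differences lay in the optix control and not in the yki3SA libraries. The noncoding RNA CR40469 (chrX:122493-122706, dm6), near the tip of the X, was at 23992, 22996 and 31770 CPM in optix ctrl, 446 and 413 in optix yki3SA, and between 247 and 545 in all 10 MARCM libraries. Among the 15 libraries only optix ctrl stood apart, so the difference of -6.22 ± 0.35 (adjusted p = 1.15e-09) carries no yki3SA response of the clones, whose change of 0.29 ± 0.17 was not called. In the eyFLP ctrl libraries of the same fit CR40469 was also high, at a mean of 44182.5 CPM. The yellow gene (y, chrX:356509-361245), also at the X tip, was at 29.4, 16.1 and 31.3 CPM in optix ctrl and at most 1.22 CPM in every other library of the comparison. Unlike CR40469, y was low in eyFLP ctrl, at a mean of 0.252 CPM. The cytochrome P450 gene Cyp4p2 was at 64.4, 29.3 and 45.4 CPM in optix ctrl and at most 1.22 in the other libraries of the comparison. Its mean in eyFLP ctrl was 0.546 CPM. The eye pigment gene v was at 3.16, 2.66 and 1.45 CPM in optix ctrl, at 0 in both optix yki3SA libraries, where 3 counts would be 0.151 CPM, and at most 0.363 CPM in MARCM. The X-linked white gene (w), a marker carried by many transgenes, rose in optix from 28.7, 15.8 and 30.7 CPM to 42.8 and 87.4 and differed by 1.00 ± 0.29 (adjusted p = 0.0245); that call was lost with the replicate block in both systems, without optix ctrl replicate 2 and without optix yki3SA replicate 2. The part of stock background in these genes was not tested.

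Of the genes with the most negative differences outside that pattern, CG14608 rose in MARCM from between 0.386 and 1.28 CPM to between 35 and 58.8 CPM and stood at 0.684, 1.54 and 1.06 CPM in optix ctrl and 2.16 and 1.04 in optix yki3SA (difference -5.31 ± 0.57, adjusted p = 1.25e-06). CG3104 rose in MARCM from between 2.65 and 4.55 CPM to between 27 and 63.3 CPM and stood between 1.56 and 4.05 CPM in the 5 optix libraries (difference -4.54 ± 0.46, adjusted p = 6.17e-07).

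Some genes responded alike in both systems, within a set margin. Of the genes called in the same direction in both, 803 were not called for the difference, and in 361 of these, 170 up and 191 down, the 95% interval of the difference lay inside -1 to 1. The gene ltl (larval translucida), a secreted modulator of Dpp signalling, was measured at 10.4, 9.81 and 12.2 CPM in optix ctrl and 140 and 148 in optix yki3SA, and in MARCM at 10.1, 6.18, 6.57, 8.63 and 8.51 CPM in ctrl and 132, 91.9, 81.9, 93.9 and 92.5 in yki3SA. The rise was 3.73 ± 0.21 in optix and 3.61 ± 0.16 in MARCM, a difference of 0.12 ± 0.25 (adjusted p = 0.788). The transcription factor genes apt and Atf3, the complement-like gene Tep2, the focal adhesion gene Pax (paxillin) and the FGF receptor adaptor stumps also rose alike: apt by 2.71 ± 0.21 and 2.74 ± 0.16, Atf3 by 1.74 ± 0.30 and 1.71 ± 0.21, in optix and MARCM. On the falling side stood pros, a homeodomain factor of neural cells, cpo, an RNA-binding protein of the nervous system, and phyl, an adaptor for photoreceptor fate. The level of pros fell from 37.4 ± 9.49 to 4 ± 0.735 CPM in optix and from 41.5 ± 6.13 to 5.53 ± 0.461 CPM in MARCM, and that of cpo from 471 ± 73.6 to 62.1 ± 2.08 and from 470 ± 20.3 to 64.9 ± 11.5 CPM.

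**Figure D5:**
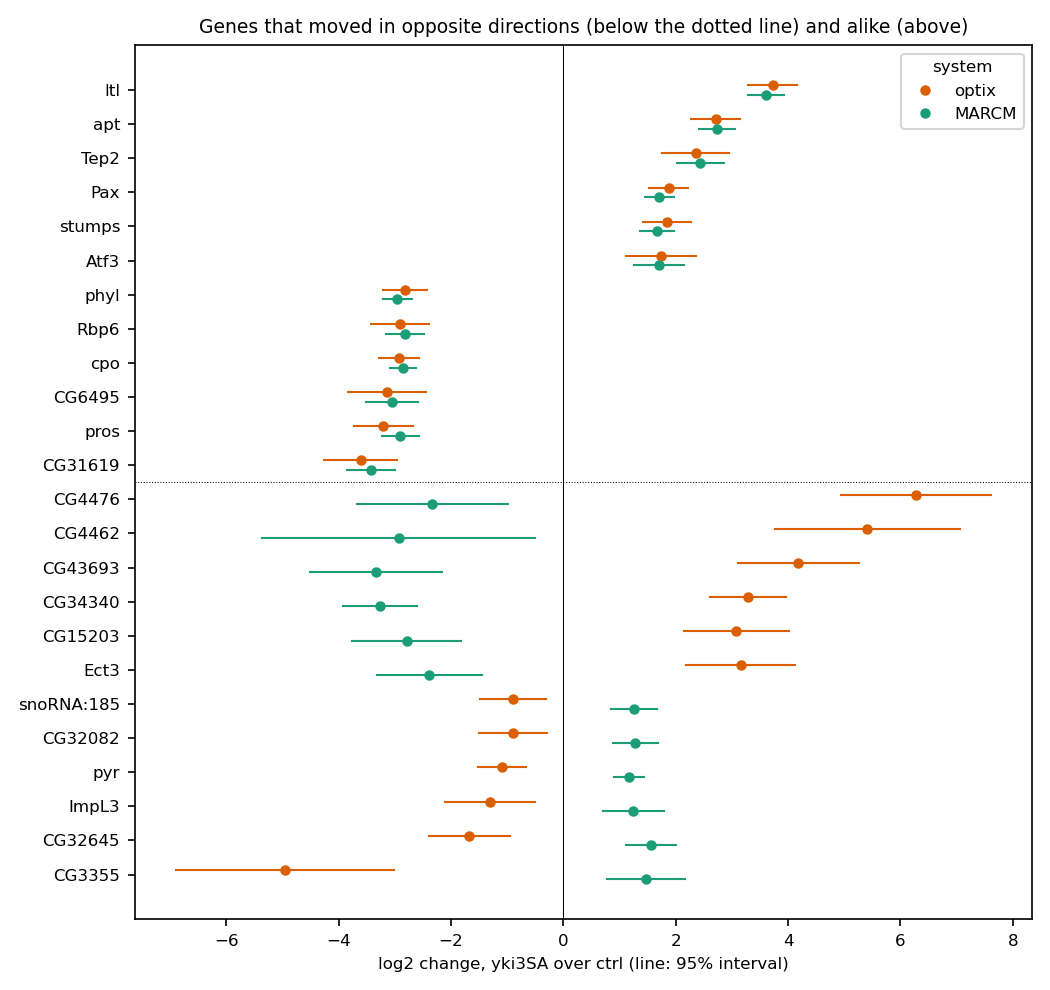
Log2 change of yki3SA over ctrl with its 95% interval, in optix (orange) and MARCM (green), for the 12 genes named for opposite calls (below the dotted line) and the 12 named for equal ones (above). The intervals of the 2 systems overlap for ltl to CG31619 and lie on opposite sides of 0 from CG4476 to CG3355.

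The MARCM side of these differences was also measured in a second sequencing run with another recombination site (FRT42D) and driver (tub-Gal4), with 2 ctrl libraries and 1 yki3SA library. Of the 1048 genes called for the difference and in MARCM, 960 (91.6%) had the same sign of change there, near the 92.2% of all 3575 genes called in MARCM. In that run os was at 3.14 and 3.64 CPM in ctrl and 51.6 in yki3SA, vg at 1.93 and 1.79 against 62, serp at 247 and 204 against 1759, and bond at 0.867 and 2.17 against 129. Lim1 was at 36.9 and 31.5 CPM against 1.85, and trol at 114 and 115 against 71.7. Mmp1, which rose in the clones of run 1, did not rise there, at 48.1 and 49 CPM in ctrl against 42.8 in yki3SA. The yki gene was at 65.5 and 62.2 CPM in ctrl and 2079 in yki3SA, whereas its MARCM ranges overlapped in run 1. The reason for this gap between the runs was not tested. With 1 yki3SA library there is no replicate check on these values. The optix side had no second set of libraries.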

How the data were processed

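The deposited tables hold raw read counts per gene from 3′ end sequencing (QuantSeq 3′ FWD) of eye-antennal discs. The submitters' processing notes name FastQC, cutadapt, STAR 2.6.1d and the dm6 build; no source used here names the counting tool, its strand setting or the annotation, so reads of overlapping genes cannot be told apart. Genes keep the symbols of the deposited tables.

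The 15 libraries compared and 5 eyFLP libraries of the same table were fitted together in edgeR 4.0.16 (R 4.3.3, limma 3.58.1): filterByExpr, TMM scaling, 1 mean per group, robust quasi-likelihood F test, Benjamini-Hochberg adjustment over 8693 genes, threshold 0.05. The SE of a log2 value is its size divided by the square root of F. CPM use TMM-scaled totals. Alternatives used DESeq2 1.42.0, limma-voom and other settings. The labels do not say that replicates came from separate crosses, so p-values measure the spread between these libraries. The deviations of the 2 optix yki3SA libraries from their mean mirror each other, so same-numbered optix pairs (r -0.0685 and -0.372) cannot show a pairing. Same-numbered MARCM libraries deviated together (r 0.144 to 0.444), so the numbers pair the MARCM libraries by the rule used. Differently numbered MARCM libraries did so too: 4 with 5 (0.203 and 0.435) and 2 with 3 (0.171 and 0.207). Numbers 1 to 3 and 4 to 5 thus formed 2 sets, with a chi-square per degree of freedom between controls of 3.22 to 10.3 within and 21.3 to 27.6 across sets. The labels name no batch for them, and a block on the numbers also takes up the sets. No 2 libraries agreed within counting noise.

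Named genes followed a written rule. It took stock genes, up to 10 per direction with the largest difference, and up to 6 per direction of opposite and of shared calls. Apart from the stock genes, these needed a mean of at least 10 CPM in a group. Genes of largest difference and of opposite calls also needed ctrl and yki3SA libraries without overlap, in either or both systems. Up to 4 called members of each list were added. Further list members, th and the roX RNAs were named after their values were seen. Groups, gene lists and members were chosen with earlier results of these data known. The fit was tested on simulated data.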

Additional observations from a re-analysis of the deposited data

Results flagged for a closer look

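The difference between the systems was itself the comparison, and it was called for 1371 genes, of which 93 rose in optix and fell in MARCM and 40 did the reverse. Log2 differences of the 12 genes named for opposite calls were 7.51 (CG43693), 6.55 (CG34340), 8.34 (CG4462), 5.87 (CG15203), 5.54 (Ect3) and 8.61 (CG4476) in favour of optix, and -3.23 (CG32645), -6.43 (CG3355), -2.55 (ImpL3), -2.26 (pyr), -2.18 (CG32082) and -2.15 (snoRNA:185) in favour of MARCM. CG4462, CG43693 and CG4476 were at or near 0 in the MARCM yki3SA libraries, so the size of their difference depends on few counts.

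In 22 of 256 groups of 5 libraries (8.59%) 1 library lay far from the others, where chance gives about 1 in 20. MARCM yki3SA 1 was high for ltl (131.5 CPM, others at most 93.9), CG5278 (14.8), CG32444 (15.2) and Act5C (12550) and low for eyg (8.74). MARCM yki3SA 5 was high for yki (67.8), Gasp (759), w (38.3) and CG4462 (0.104) and low for Optix (51.3). MARCM yki3SA 4 was high for Hsp67Ba (30.4) and CG43693 (0.407), MARCM yki3SA 3 for nerfin-1 (5.23), and MARCM yki3SA 2 for v (0.111). CG4462 and v each summed to 1 count over the MARCM yki3SA libraries, so 1 read set those libraries apart. Among controls, MARCM ctrl 2 was high for spok (67.5), Mmp1 (45.2) and Lcp3 (7.03), MARCM ctrl 1 was high for CG31619 (29.9) and low for pnr (19.8), MARCM ctrl 3 was high for Hsp70Ba (0.294), and MARCM ctrl 4 was low for nSyb (28.4) and Cyp4p2 (0.129). The groups of 2 and 3 optix libraries were too small to be examined this way.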

How the results depend on the processing

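Most settings kept the count of 1371 within 1.5 times. Asking for a log2 change of at least 1 (glmTreat) gave 245 genes for the difference, 433 for optix and 999 for MARCM. Testing only genes that average 10 CPM or more gave 1132 for optix and 2365 for MARCM. Leaving out 1 library at a time gave 756 to 1977 genes for the difference, 818 to 2199 for optix and 3255 to 3846 for MARCM; for the first 2 counts the lowest and highest values came without optix yki3SA replicate 2 and without replicate 1. DESeq2 gave 1585, limma-voom 1397, the 15 libraries alone 1131 and the run 2 libraries added 1310. The replicate block gave 1726 genes for the difference when used in both systems, and 1492 in MARCM alone, where it also takes up the sets 1 to 3 and 4 to 5; leaving out optix ctrl 2 and optix yki3SA 1, the lowest of their groups on the second component, together gave 1645. The last 2 settings were chosen after seeing the data. Beside the lists and genes named above the block in both systems ended the calls of TwdlQ and mRpL10. With upper-quartile scaling 54.9% of called genes were higher in optix, against 49.2%. Of 108 named genes called for the difference, 73 kept the call in all settings but glmTreat and 26 lost it without optix yki3SA replicate 2. The sign reversed for 3 genes that were not called: yki (-0.27 to 2.48 with 1 library left out, the lowest without optix yki3SA replicate 2), PPO2 (-0.16 with run 2 added) and spok (-0.11 to 3.48, the lowest without optix yki3SA replicate 1). With 2 optix yki3SA libraries, differences of low-count genes are the least firm.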
